A study of Drosophila melanogaster with 4 samples.

Results

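Chromosome 4, the assembled pieces of pericentric and Y heterochromatin (2LHet, 2RHet, 3LHet, 3RHet, XHet and YHet) and the pool of unplaced scaffolds, U, were examined for clusters of RPD3 enrichment in chromatin immunoprecipitation with sequencing (ChIP-seq) of adult Drosophila melanogaster heads. Clusters were taken from the authors' combined list for the replicate set where they lay on 1 of these 8 sequences, were named as enriched and were under 6000 bp wide. This gave 269 of the 7386 enriched clusters of that list, namely 99 on chromosome 4, 66 on the 6 heterochromatic scaffolds and 104 on U. A cluster was called found in a replicate where it overlapped a cluster of that replicate's own list by at least 1 bp. The width limit left out 2 clusters, both on chromosome 4 and both 9295 bp wide, from 1046162 to 1055456 (score 0.86) and from 1279844 to 1289138 (score 0.50), and both were found in both replicates. The widest clusters inside the limit were 5545 bp on chromosome 4 and 5413 and 4669 bp on 2LHet.

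The series holds 2 RPD3 ChIP samples and 2 inputs, 1 for each ChIP sample, all from head nuclei of mixed adults of the wild-type Oregon-R strain (Oregon-R-modENCODE), immunoprecipitated with the antibody RPD3-Q3451. Flies were kept in population cages on a 22-day adult cycle, so each sample pools many animals and all cell types of the head. The labels number the ChIP samples as replicates 1 and 2 and do not say whether they came from separate cages, so the spread between them may be technical. All samples form 1 condition, and the read depth of each library is unknown.

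RPD3 is a class I histone deacetylase, the fly counterpart of mammalian HDAC1 and HDAC2, and works as the catalytic subunit of corepressor complexes such as Sin3 and NuRD. Deacetylation of histone H3 at lysine 9 frees that residue for the methylation that the heterochromatin protein HP1a binds. Chromosome 4 is a small autosome in which this kind of chromatin is interspersed with active genes, and it is coated by HP1a and by the chromosome-specific protein POF. The heterochromatic scaffolds hold repeat-rich sequence next to centromeres and on the Y chromosome. U joins pieces that were not placed on any chromosome end to end, so a distance along U is a genomic distance only within a piece. Positions are on FlyBase release 5. Genes are not named, because the gene table used here is of release 6. Sequences are not shown for the same reason.

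Few of the clusters in these regions recurred in both replicates. Of the 269, 84 were found in both replicates, or 31.2% (95% exact interval 25.7 to 37.1), where 57.7% of all combined-list clusters under 6000 bp were. A further 42 were found in replicate 1 alone (15.6%, background 10.3%), 18 in replicate 2 alone (6.69%, background 14.7%), and 125 in neither (46.5%, background 17.2%). Intervals cover counting error over clusters only, and clusters of a list are not independent. No difference between sequences was tested, since the 2 samples give no test between parts of the genome.

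The 3 kinds of sequence had different makeups. On chromosome 4, 37 of 99 clusters were found in both replicates (37.4%, interval 27.9 to 47.7) and 30 in replicate 1 alone. The heterochromatic scaffolds had 28 of 66 in both (42.4%, 30.3 to 55.2) and 32 in neither, and U had 19 of 104 in both (18.3%, 11.4 to 27.1) and 67 in neither. On the 5 large arms (2L, 2R, 3L, 3R and X) the share in both was 58.8% (57.6 to 60.0) of 6547. Most of the unmatched clusters of U and the scaffolds were thus absent from both replicate lists, while nearly as many on chromosome 4 were in replicate 1 alone as in both.

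**Figure D1:**
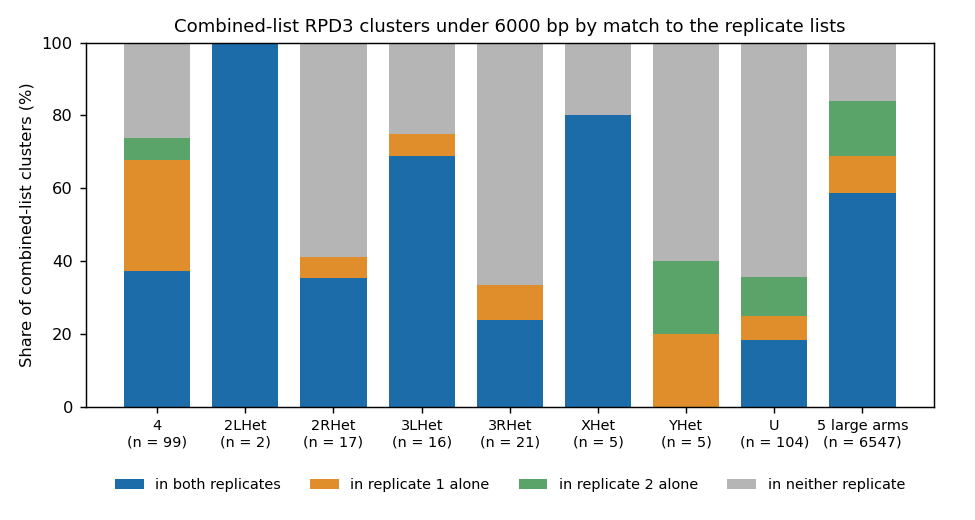
Share (%) of combined-list RPD3 clusters under 6000 bp on each sequence by match to the replicate lists, with the number of clusters below each bar. On chromosome 4, 37.4% were in both replicates and 30.3% in replicate 1 alone, and on U 64.4% were in neither, against 16% on the large arms.

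The chromosome 4 clusters found in both replicates were spread over most of its length. The first ran from 62790 to 65400 (score 0.49) and the last from 1296250 to 1299726 (score 0.28), on a sequence of 1351857 bp that ends on the telomere side. With the chromosome divided into 10 equal parts, each part held 2 to 6 of them. They were most numerous in part 4 (405558 to 540742) and part 6 (675929 to 811114), with 6 each, where they took up 12.6% and 13.6% of the sequence. Part 5, between these, held 2 and was covered to 5.05%. Together the 37 clusters covered 8.15% of chromosome 4, against 10.6% of the large arms, both under the width limit.

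Along the chromosome the gaps between these clusters ran from 23 to 96169 bp. The median gap from 1 cluster found in both replicates to the next was 21682 bp, and 17 of the 36 gaps (47.2%) were under 20 kb. On the large arms the median gap was 12160 bp and 61.9% of gaps were under 20 kb. Without the width limit the median gap stayed at 21682 bp on chromosome 4. It then ranged from 7527 bp (X) to 9887 bp (3L) over the large arms. Joined across gaps under 20 kb, the 37 clusters fell into 20 groups, of which 12 were single clusters and 8 held the other 25. The 8 groups show where RPD3 enrichment recurred at sites under 20 kb apart. Whether the clusters lie closer together than randomly placed ones would was not tested.

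The largest group held 6 clusters over 66677 bp, from 462982 to 529658, with scores from 0.44 to 0.81. Its first pair, from 462982 to 465422 and from 465758 to 468392, lay close together in the combined list and were separate clusters in both replicates as well. The next largest group held 4 clusters over 16423 bp, from 676680 to 693102, of which 11260 bp were covered. In that group the cluster from 679152 to 682286 scored 0.81 and the one from 690816 to 693102 scored 0.80. The first cluster of the group, from 676680 to 679128 (score 0.34), met its replicate 2 counterpart only at the end. That replicate 2 cluster, from 679093 to 682217, was also the counterpart of the next one.

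Other groups had 3 clusters each, from 199036 to 231640 (scores 0.28 to 0.47), from 978908 to 1011934 (0.32 to 0.67) and from 1275346 to 1299726 (0.28 to 1.09). The remaining 3 groups were pairs, from 327810 to 336388, from 576934 to 592570 and from 1132930 to 1147030. Between 806528 and 926906 the clusters found in both replicates were single, 4 in all. The wider cluster from 1046162 to 1055456, left out by the width limit, would add another single cluster, and the one from 1279844 to 1289138 lies inside the last group of 3.

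Long stretches of chromosome 4 held no combined-list cluster of any kind. The longest ran from 235005 to 327809 (92.8 kb) and the next from 718849 to 797821 (79.0 kb). The first 62.8 kb of the sequence were also empty, as was 1148581 to 1201739 (53.2 kb). On the whole chromosome 99 clusters under 6000 bp gave 73.2 per Mb, of which 27.4 per Mb were found in both replicates, against 55.0 and 32.4 per Mb on the large arms. By all combined-list clusters the chromosome was thus denser than the large arms, and by those found in both replicates it was not.

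**Figure D2:**
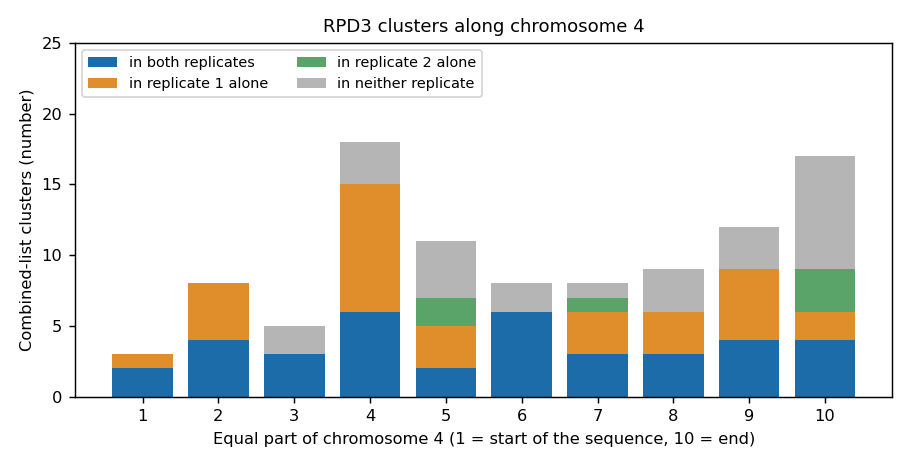
Number of combined-list RPD3 clusters under 6000 bp in each of 10 equal parts of chromosome 4, from the start of the sequence (1) to its end (10), by match to the replicate lists. Parts 4 and 6 each held 6 clusters found in both replicates, part 4 also held 9 found in replicate 1 alone, and part 10 held 8 found in neither.

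The highest-scoring chromosome 4 site found in both replicates lay from 576934 to 579966 (3033 bp), and scored 1.11 in the combined list. The authors' score per cluster is taken here to be the log2 of the ratio of ChIP to input, and it was compared only within a list. This site scored 1.11 in replicate 1, where it ranked 1320 of 5550 clusters, and 1.21 in replicate 2, where it ranked 1539 of 5872. Its place in both lists was therefore similar and well below the top.

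The second lay near the right end, from 1289894 to 1293846 (3953 bp, score 1.09). It ranked 75 in replicate 1 (score 1.74) and 1730 in replicate 2 (score 1.15). In replicate 1 the cluster began at 1291581 and in replicate 2 at 1290185. The third was also the widest, from 86178 to 91722 (5545 bp, score 1.03), and had nearly the same extent in both lists, from 86096 to 91606 in replicate 1 (score 1.12) and from 86332 to 91693 in replicate 2 (score 1.04).

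The other sites among the 10 highest of chromosome 4 found in both replicates scored between 0.68 and 0.85. They lay from 806528 to 810438 (0.85), from 853664 to 856202 (0.83), from 462982 to 465422 (0.81), from 679152 to 682286 (0.81), from 690816 to 693102 (0.80), from 377876 to 381798 (0.79) and from 885734 to 889304 (0.68). None of the chromosome 4 clusters was among the 100 highest scores of the combined list. Of the widest sites, those from 525006 to 529658 (4653 bp) and from 1142784 to 1147030 (4247 bp) scored 0.45 and 0.39, while the other 3 were among the 10 highest scores of clusters found in both replicates. Across the 37 clusters found in both, Spearman's rho of width and score was 0.47, a description with no test.

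As a set, the chromosome 4 clusters found in both replicates were lower in score than those of the large arms and somewhat narrower. Their median score in the combined list was 0.50 (range 0.26 to 1.11) against 0.83 on the large arms, and their median width was 2689 bp against 3051 bp. Both widths are of clusters inside the width limit, which left out a larger share of those on each large arm than on chromosome 4. In the replicates' own lists the median place of the matching clusters was above 32.5% of replicate 1 clusters and above 27.5% of replicate 2 clusters, against 56.2% and 56.3% for the large arms. Recurrence at matched scores was also compared. Among clusters scoring under 0.5, 24.7% (15.3 to 36.1) of 73 on chromosome 4 and 20.1% (18.7 to 21.5) of 3086 on the large arms were found in both replicates. Among those scoring 0.5 to 1 the shares were 72.7% (49.8 to 89.3) of 22 and 90.2% (88.8 to 91.4) of 2136.

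The clusters found in 1 replicate alone leaned to replicate 1 on chromosome 4. They numbered 30 in replicate 1 and 6 in replicate 2, where the large arms leaned the other way, with 663 and 985. The heterochromatic scaffolds leaned as chromosome 4 did, with 5 and 1, and U as the large arms did, with 7 and 11. Requiring replicate 1 alone raised the found clusters of chromosome 4 from 37 to 67, while requiring replicate 2 alone gave 43. Of the replicate 1 clusters on chromosome 4, 68 of 76 (89.5%) had a counterpart in the combined list, against 94.8% over the whole list. For replicate 2 it was all 45, against 99.4%. All 30 found in replicate 1 alone scored below the median of the combined list, 0.59, with a median of 0.32. Over all sequences 3.69% of clusters found in replicate 1 alone scored above that median. On chromosome 4, 27 of the 30 lay within 20 kb of a cluster found in both replicates, as did 23 of the 26 found in neither. Of the 6 found in replicate 2 alone, 2 did. The share of the whole chromosome within that distance was not computed, so no particular nearness can be read from these counts. The longest unbroken run of clusters found in replicate 1 alone held 5, from 468618 to 480598, directly after the first pair of the largest group.

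The last replicate 1 cluster of chromosome 4 ended at 1299757. The 52100 bp beyond it, a stretch defined by that end after the values were seen and so without replicate 1 clusters by construction, held 9 combined-list clusters, of which 3 were found in replicate 2 and 6 in neither replicate. The 3 lay from 1317782 to 1320386 (score 0.48), from 1320430 to 1323844 (0.36) and from 1333582 to 1336050 (0.81). Among the 6 was the highest score of the chromosome, 1.5, in a cluster of 1081 bp from 1311590 to 1312670. It was narrower than any cluster of either replicate list, the narrowest of which was 1301 bp.

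The heterochromatic scaffolds held 28 clusters found in both replicates, most of them far apart. Of the 23 gaps between neighbours on a scaffold, 7 (30.4%) were under 20 kb, against 61.9% on the large arms. The scaffolds held 3.02 such clusters per Mb and the large arms 32.4, so these shares are not compared at equal density. On XHet all 4 fell into 1 group of 29607 bp, from 56424 to 86030, on a scaffold of 204112 bp. They lay from 56424 to 58840 (score 0.69), from 59772 to 63730 (1.00), from 74412 to 79012 (0.61) and from 83700 to 86030 (0.99). They covered 6.52% of XHet, while the last 118.1 kb of that scaffold held no combined-list cluster. In replicate 1 the clusters at 59772 and 83700 had the highest scores, 1.18 and 1.26. In replicate 2 the one at 59772 did, at 1.12, with the other 3 between 0.68 and 0.78.

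On 3LHet 11 of 16 clusters were found in both replicates, and 5 of these followed each other without another kind between them. This run began with 3 clusters over 13617 bp, from 594250 to 596844 (score 0.34), from 598962 to 602486 (0.40) and from 605038 to 607866 (0.73). A pair followed, from 701504 to 703918 (0.81) and from 708616 to 710964 (0.70). The pair stood out by its unequal place in the replicates, at ranks 1623 and 1777 in replicate 1 and 5305 and 5718 in replicate 2. The other 6 were single. They lay from 409876 to 412162 (0.43), from 458646 to 461244 (0.59), from 1395750 to 1397960 (0.95), from 2189528 to 2191870 (0.67), from 2242250 to 2244832 (0.55) and from 2396524 to 2400250 (0.93).

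On 3RHet the clusters found in both replicates lay only in the part beyond 1704870, and there were 5 of 21. The 10 combined-list clusters before that position, between 69092 and 1580568, were all found in neither replicate. Those found in both lay from 1704870 to 1707178 (score 0.56), from 1807458 to 1809564 (0.48), from 1822572 to 1825162 (0.62), from 1897740 to 1899970 (0.40) and from 2348368 to 2350480 (1.12). The last had the highest score of any scaffold cluster found in both replicates. It ranked 319 in replicate 1 (score 1.45) and 3173 in replicate 2 (score 0.81), so its place was much higher in replicate 1.

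On 2RHet 6 of 17 clusters were found in both replicates, all of them single, in 2 sets of 3 toward either end of the scaffold. The first set lay from 197334 to 200044 (score 0.40), from 389502 to 392794 (0.90) and from 470202 to 473030 (0.81). The second lay from 2774652 to 2777036 (0.64), from 2899588 to 2903654 (0.64) and from 3197050 to 3200430 (0.80). The gap between the sets was 2301621 bp. It held 5 other clusters, of which 1 was found in replicate 1 and 4 in neither replicate.

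On 2LHet the only 2 combined-list clusters were found in both replicates. They lay from 31374 to 36786 (5413 bp, score 0.57) and from 166606 to 171274 (4669 bp, score 0.82), and ranked 3971 and 2625 in replicate 1 and 3773 and 2470 in replicate 2. On YHet none of 5 clusters was found in both replicates. With so few clusters a share of up to 52.2% (exact interval) is allowed. The cluster from 304462 to 306284 (score 0.41) was found in replicate 1 and the one from 204050 to 205496 (0.45) in replicate 2.

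U held 19 clusters found in both replicates, with the widest range of scores of the 3 kinds of sequence. Their median score was 0.84, near the 0.83 of the large arms, and they ran from 0.23 to 2.35. At the top were the clusters from 9710012 to 9712814 (score 2.35) and from 9094062 to 9096780 (2.29). The first ranked 4 in replicate 1 and 8 in replicate 2, the second 3 and 27. The next were from 7541976 to 7545898 (3923 bp, score 1.73), which ranked 38 and 326, and from 6383510 to 6387768 (4259 bp, score 1.46), which ranked 65 and 33. These 4 held high places in both lists.

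The remaining clusters of U found in both replicates scored 1.32 or less. The cluster from 7221562 to 7223870 scored 1.32 and ranked 648 in the combined list, the one from 9618814 to 9620920 scored 1.10, and the one from 8906624 to 8909406 (2783 bp) scored 0.95. The rest of the 10 highest lay from 8927082 to 8928962 (0.89), from 8949318 to 8951522 (0.87) and from 5540968 to 5542958 (0.84). A wide cluster from 6558028 to 6561170 (3143 bp) scored 0.23, the lowest of the 19. Of the 19, 17 lay beyond position 5000000 of U, as did 77 of its 104 clusters. The median gap between the 19 was 205831 bp, and only 2 gaps were under 20 kb. These gaps and positions are along the joined pieces of U, and are genomic distances only within a piece. The sources used here do not say how the authors treated reads that match several places, and the part of such reads in the clusters of repeat-rich sequence was not tested.

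**Figure D3:**
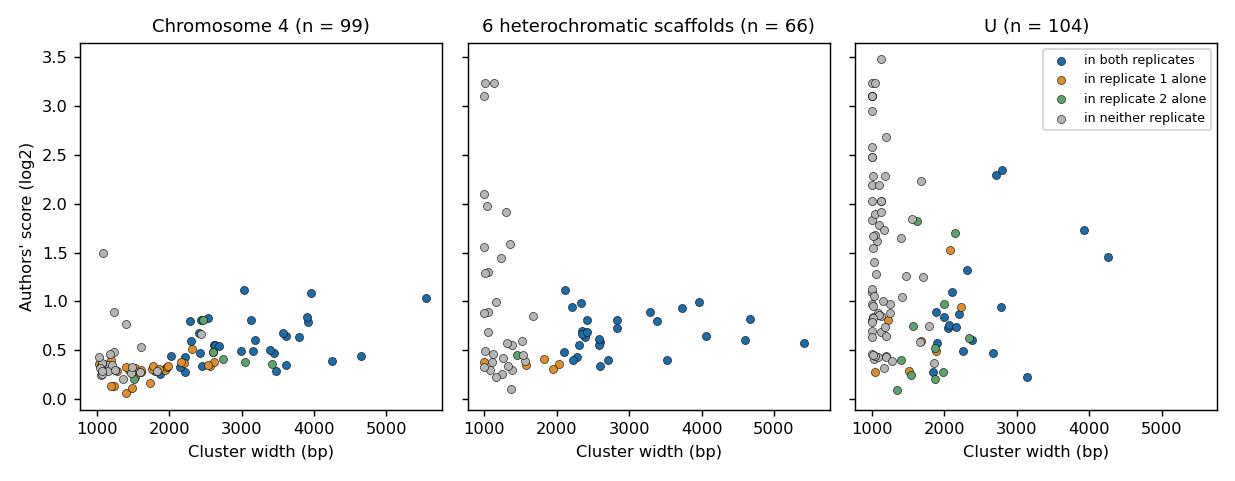
Authors' score (log2) against width (bp) of each combined-list cluster under 6000 bp on chromosome 4, on the 6 heterochromatic scaffolds and on U, coloured by match to the replicate lists. Clusters in neither replicate stand near the lower width limit of 1001 bp, and on the scaffolds and U they reach the highest scores, up to 3.24 and 3.48.

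The highest-scoring combined-list cluster was one that neither replicate list held on U (3.48), 3RHet (3.24), 2RHet (1.98), 3LHet (1.91), YHet (0.85) and chromosome 4 (1.5), and also over the large arms as a whole (3.36). On XHet (1.00) and 2LHet (0.82) the highest-scoring cluster was found in both replicates. The medians differed between sequences. On the large arms clusters found in neither replicate had a median score of 0.36 against 0.83 for those found in both. On U the order was the reverse, with 1.25 for the 67 found in neither and 0.84 for the 19 found in both. On 3RHet it was 0.93 for 14 against 0.56 for 5, and on 3LHet 1.43 for 4 against 0.67 for 11, while on 2RHet it was 0.47 for 10 against 0.72 for 6. On chromosome 4 the order was that of the large arms, 0.34 against 0.50. It was the same on XHet, 0.45 for 1 against 0.84 for 4.

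Of the 20 highest scores of the whole combined list, 14 lay on these sequences, 11 on U and 3 on 3RHet. All 14 were found in neither replicate, and all were narrower than 1301 bp. The 3 on 3RHet were from 397390 to 398390 (1001 bp, score 3.10), from 697562 to 698694 (1133 bp, score 3.24) and from 1085182 to 1086186 (1005 bp, score 3.24). Among the 6 on the large arms, 2 were found in both replicates. The other 4 were found in neither and were also narrower than 1301 bp. Scores that recurred to 9 decimals were common in this set. The value 3.24 was shared by 5 clusters of the combined list, 4 of them on 3RHet and U, and 38 of the 67 clusters of U found in neither replicate shared their score with another cluster. Among the 1048 of the large arms found in neither, 354 did. The top 5 distinct scores of the combined list, as powers of 2, were 13, 12, 11, 10 and 9 times 1 step. The number of reads behind these scores is unknown here, so they are not shown to be the strongest enrichment.

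Recurrence rose with score on the large arms up to a score of 1.5 and did not on U. In the better-scoring 50% of the combined list, 96.9% (96.3 to 97.5) of 3001 clusters of the large arms were found in both replicates. On chromosome 4 it was 75% (50.9 to 91.3) of 20, on the heterochromatic scaffolds 51.4% (34.0 to 68.6) of 35 and on U 17.7% (10.0 to 27.9) of 79. Among clusters of 2 or more, U had 2 of 21 in both replicates (9.52%, 1.17 to 30.4) and the scaffolds 0 of 4 (which allows up to 60.2%), while the large arms had 20 of 25 (80.0%, 59.3 to 93.2).

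**Figure D4:**
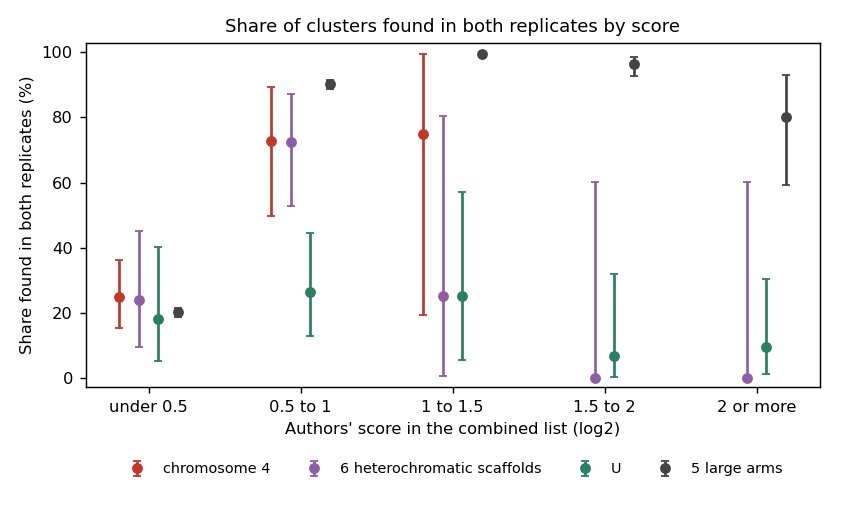
Share (%) of combined-list clusters under 6000 bp found in both replicates, by range of the authors' score (log2), with 95% exact intervals as bars. The large arms rose from 20.1% under 0.5 to 99.4% at 1 to 1.5, while U stayed between 6.67% and 26.5% in every range.

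Width moved with these shares. Clusters narrower than 1301 bp, the narrowest in either replicate list, made up 86.6% of the clusters of U found in neither replicate, 65.6% of those of the scaffolds, 69.2% of those of chromosome 4 and 67.3% of those of the large arms. None of the 84 clusters found in both replicates was that narrow. Without the narrow clusters the share found in both was 43.2% (28.3 to 59.0) of 44 on U, 63.6% (47.8 to 77.6) of 44 on the scaffolds, 50.7% (38.7 to 62.6) of 73 on chromosome 4 and 68.5% (67.3 to 69.8) of 5618 on the large arms. Each share could only rise, because no cluster found in both replicates was removed. This alternative was added after the data were seen. The 9 such clusters of U found in neither replicate still had a higher median score, 1.25, than the 19 found in both, whereas the 11 of the scaffolds, at 0.56, were below the 28 found in both, at 0.66.

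Where clusters were found in both replicates, the extents and scores of the matching replicate clusters were compared. The matching clusters shared a median of 78.1% of their joint extent on chromosome 4, 83.3% on the scaffolds, 78.8% on U and 79.9% on the large arms. Both edges lay within 200 bp of each other in 8 of 37 pairs on chromosome 4, in 10 of 28 on the scaffolds and in 7 of 19 on U (21.6%, 35.7% and 36.8%), against 22.1% on the large arms. Over these pairs Spearman's rho between the replicate scores was 0.61 on chromosome 4 (Pearson's r 0.64), 0.53 on the scaffolds (0.50) and 0.88 on U (0.93). On the large arms it was 0.63 (0.65) over 3851 pairs. Among the scaffolds 3LHet had a rho of 0.28 over 11 pairs, and on chromosome 4 rho was 0.31 over the 15 clusters in the better-scoring 50% of the combined list. These are descriptions across clusters, which share their libraries and are not independent.

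**Figure D5:**
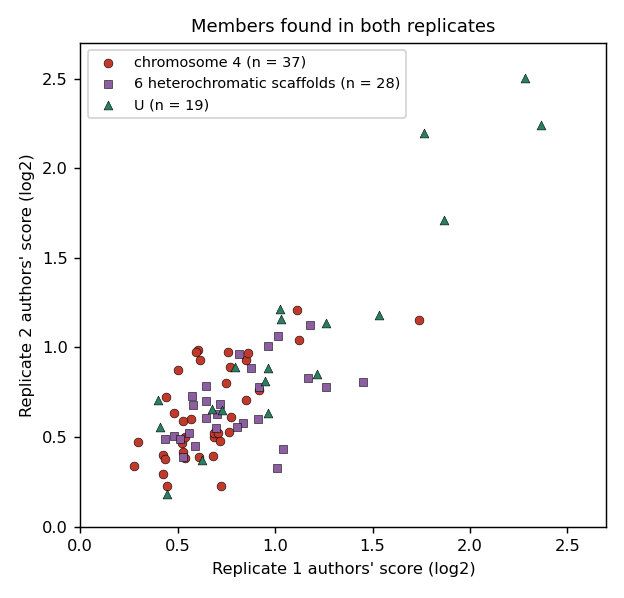
Authors' score (log2) in replicate 1 and replicate 2 of the replicate clusters that match each combined-list cluster found in both, for chromosome 4, the 6 heterochromatic scaffolds and U. The 4 clusters of U with the highest combined scores have the 4 highest scores of these 84 in both replicates, next to a chromosome 4 cluster at 1.74 in replicate 1. The scale factor of each list is unknown, so only the order within a list is comparable.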

How the data were processed

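RPD3 ChIP-seq clusters of 2 ChIP samples, called by the authors, were analysed together with the authors' combined list. The labels number 1 input for each ChIP sample. The submitters' processing notes name Bowtie 0.12.7. The sources used here do not give the program that called clusters or its cutoff, the handling of repeated sequence, read depth or the way the replicates were combined. Positions refer to FlyBase release 5, per the file headers, and are 1-based here. The deposited score of each cluster was taken to be the log2 of the ratio of ChIP to input, because the top 5 distinct values of the combined list, as powers of 2, are 13, 12, 11, 10 and 9 times 1 step. The headers do not name the scale, so scores were ranked only within a list.

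Overlaps, gaps, groups and 95% exact (Clopper-Pearson) intervals were computed with Python 3.11.15, pandas 2.3.3 and scipy 1.17.1, and the overlap and grouping functions were tested on simulated data. The matching cluster was the one with the longest overlap. The 1 region named as depleted was left out. No test between groups was possible with 1 condition, and none was run. Regions were named by rule: on chromosome 4 and U the 10 highest-scoring and 5 widest clusters found in both replicates, the first and last on chromosome 4, all found in both on the scaffolds, and those at the width limit. Other positions were named after their values were seen. Members, lists and rules were chosen with earlier results of these data known. Inputs were not analysed here.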

Additional observations from a re-analysis of the deposited data

How the results depend on the processing

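Of 42 alternative values over 7 results, 30 stayed within the main value's interval, within 1.5 times a count, or at the same correlation to 2 decimals, and 12 moved. In the better-scoring 50% of the combined list the share of chromosome 4 clusters found in both replicates rose from 37.4% to 75%. On the large arms that share rose from 58.8% to 96.9%. The median score on chromosome 4 went from 0.50 to 0.80, a rise fixed in advance by keeping only the higher scores. The chromosome 4 groups fell from 20 to 13 because only 15 clusters were left. The correlation of replicate scores on chromosome 4, 0.61, was then 0.31, and it was 0.62 both without the width limit and with an overlap of at least 50% of the shorter cluster. Without clusters narrower than 1301 bp, an alternative added after the data were seen, the share found was 50.7% on chromosome 4, 63.6% on the scaffolds and 43.2% on U. These shares could only rise, because no cluster found in both replicates was removed. With either replicate left out the share found ranged from 43.4% to 67.7% on chromosome 4, from 43.9% to 50.0% on the scaffolds and from 25% to 28.8% on U. The chromosome 4 groups then ranged from 19 to 21, the median score from 0.36 to 0.49 on chromosome 4 and from 0.74 to 0.79 on U. Joining under 10 kb gave 27 groups and under 40 kb gave 14. Causes were not tested beyond this. No paired analysis was possible because both ChIP samples are in 1 group and input values were not analysed here. Read depth is unknown, so what depth limits cannot be stated.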
